A study of Sus scrofa with 12 samples.

Results

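The Kruppel-like factors (KLFs) are zinc finger proteins that bind GC-rich and CACCC DNA elements, and 10 of their genes were followed here through pig induced pluripotent stem cells: KLF2, KLF3, KLF4, KLF5, KLF6, KLF7, KLF9, KLF10, KLF11 and KLF13. Of these, 9 were taken from the 24358 genes of the expression tables by the name the tables give them. KLF4 carried no name there and was found by its Ensembl identifier, ENSSSCG00000005437, so that all 10 had values in all 12 libraries. The members were sorted by role into 3 naive-state genes (KLF2, KLF4 and KLF5), 2 TGF-beta-inducible genes (KLF10 and KLF11) and 5 others.

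The cells were PC-iPS cells, reprogrammed from pig pericytes and grown in LCDMV, a medium with LIF, the GSK3 inhibitor CHIR99021, dimethindene maleate, minocycline and vitamin C. Poly(A) RNA was sequenced from 4 groups of 3 libraries. WT PC-iPS were the parental cells. NANOG tdTomato knock-in positive PC-iPS carried a FLAG-P2A-tdTomato reporter with a puromycin cassette at NANOG, and their libraries bear the names of 3 lines grown from separate transfections. The Activin A libraries came from knock-in cells given this ligand, and the SB431542 libraries from knock-in cells given an inhibitor of the TGF-beta and Activin type I receptors. In all groups the cells were dissociated and replated for 1 h to let feeder cells settle, and RNA was taken from those still floating. The labels give this step for every sample, but the paper's results describe cytokine screens without feeders, and which applied to the sequenced treatments is not stated. Each knock-in line was a mixed population sorted for tdTomato, not a clone, and could hold cells with the reporter at either or both NANOG loci or unedited cells. WT PC-iPS are not described as transfected, drug-selected or sorted, so these steps cannot be told apart from the reporter. The labels give LCDMV for every sample while the methods describe the cytokine treatments in the same medium without LIF, and the labels state neither dose nor duration for the sequenced treatments.

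In mouse embryonic stem cells KLF2, KLF4 and KLF5 sustain self-renewal and hold the naive state, and KLF4 is a target of LIF and STAT3 signalling there. KLF4 is also a reprogramming factor. KLF10 and KLF11 were first described as TGF-beta-inducible early genes, and both proteins repress transcription through the SIN3A co-repressor. Activin A signals through the same SMAD2 and SMAD3 proteins as TGF-beta, and SB431542 blocks that route.

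Values were FPKM, a fragment count scaled to transcript length and library size, a level per length that can be set side by side between genes. The FPKM of a library summed to between 364241 and 390320, and 15339 to 15827 genes were above 0. FPKM keeps no read number, so the depth behind each value is unknown. The reporter target NANOG was set against the labels: it stood at 9.71, 16.4 and 27.6 FPKM in WT PC-iPS 1, 2 and 3, at 52.0, 101 and 70.4 in the knock-in lines, at 109, 195 and 157 with Activin A and at 11.8, 27.2 and 11.8 with SB431542. Only WT PC-iPS and SB431542 overlapped, so NANOG does not check those labels against each other. Of the pluripotent cell markers, SOX2, SALL4, LIN28A and DNMT3B were detected, whereas TDGF1 and EPCAM were near 0. POU5F1 was listed but not matched to a gene. The 7 matched of 8 listed, NANOG among them, summed to 135 to 154 FPKM in WT PC-iPS and to 281 to 490 in the knock-in lines. The 14 pericyte and fibroblast markers summed to 28.3 to 41.7 FPKM in WT PC-iPS and to 365 to 508 in the knock-in lines, most of it TAGLN (15.2 to 26.6 and 299 to 457 FPKM); the other 13 summed to 13.2 to 19.5 and 49.0 to 66.3. In bulk RNA, fewer cells of a type and less RNA per cell cannot be told apart.

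**Figure D1:**
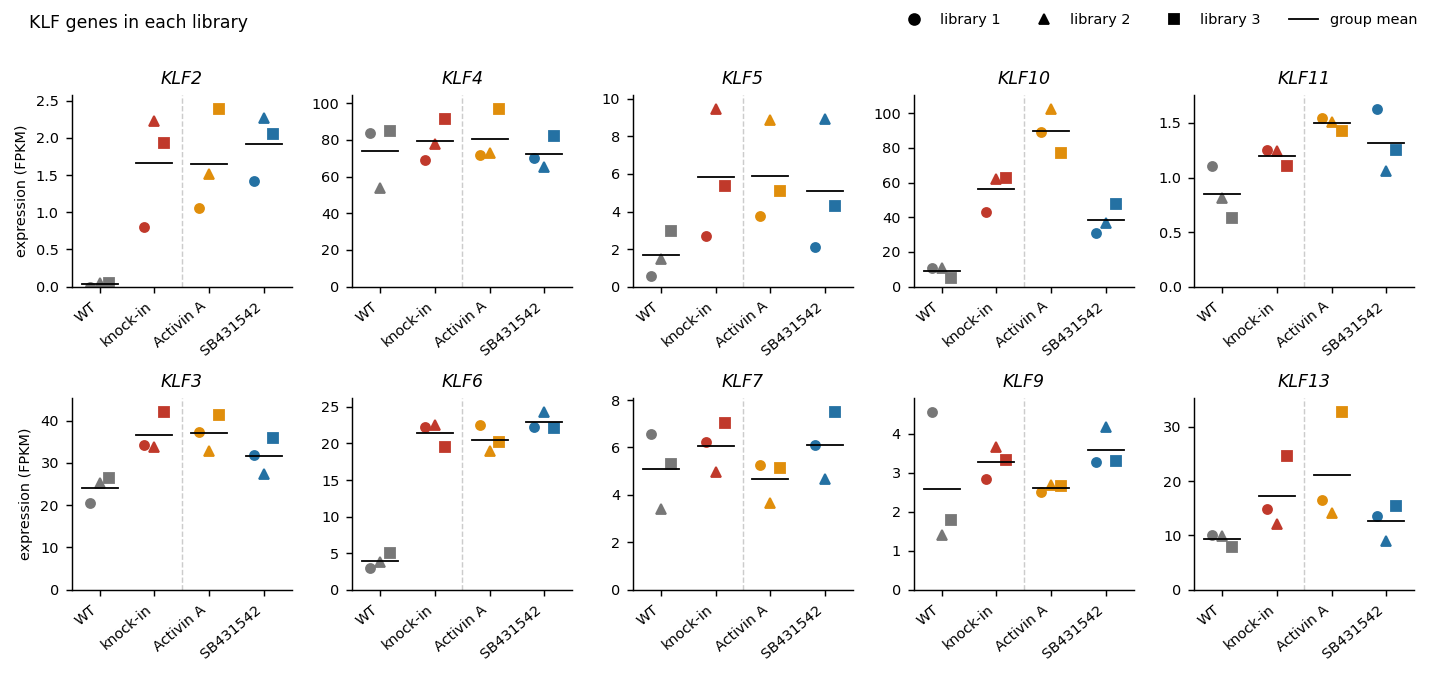
Expression in FPKM (linear axes from 0) of the 10 KLF genes in each of the 12 libraries; the circle, triangle and square are libraries 1, 2 and 3 of a group, bars are group means, and the dashed line parts the 2 deposited tables. KLF2, KLF3, KLF6 and KLF10 sat higher in every library of the knock-in, Activin A and SB431542 groups than in any WT library. For KLF3 the gap was narrow (26.5 FPKM in WT PC-iPS 3 and 27.3 in SB431542 2). KLF4 overlapped between all groups.

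KLF4 was the most abundant of the 10 genes in WT PC-iPS, where its mean of 74.1 FPKM ± 17.6 (SD, n = 3) was followed by KLF3 with 24.1 ± 3.11. Below these came KLF13 (mean 9.29 FPKM), KLF10 (8.88), KLF7 (5.08), KLF6 (3.89), KLF9 (2.58), KLF5 (1.67) and KLF11 (0.848), and each of these neighbours overlapped the next in its library values. KLF2 closed the order at 0.033 FPKM and stood apart from KLF11. In the knock-in lines KLF10 had moved up to the place next to KLF4, at 56.0 FPKM ± 11.2 (SD, n = 3), below KLF4 at 79.3 ± 11.3 and above KLF3 at 36.7 ± 4.63, with no overlap between the 3. With Activin A, KLF10 had the highest mean, 89.4 FPKM ± 12.7, but its libraries overlapped those of KLF4 (80.5 ± 14.2). With SB431542, KLF4 (72.5 FPKM ± 8.56) was again apart from KLF10 (38.6 ± 8.49), and KLF10 overlapped KLF3 (31.7 ± 4.31). KLF2 and KLF11 were the 2 lowest members in the knock-in, Activin A and SB431542 groups and overlapped each other in each of them. As a share of the summed FPKM of the 10 genes, KLF10 made up 3.63 to 9.64% in WT PC-iPS, 21.9 to 27.0% in the knock-in lines, 27.0 to 39.5% with Activin A and 17.0 to 21.6% with SB431542.

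The first comparison set the 3 knock-in lines against WT PC-iPS and asked which genes differ between cells with the NANOG reporter and their parents. KLF10 and KLF6 were called higher in the knock-in lines, KLF2 was near 0 in WT PC-iPS and present in the knock-in lines, and no KLF member was called lower. A gene was called where limma's adjusted p was at most 0.05 and the difference of log2(FPKM + 1) was at least 1 in size, which 2 of the 9 members other than KLF2 met in the upward direction, beside 1.61% of the 14014 genes tested (2.31% in either direction). Differences below are on this log2(FPKM + 1) scale, which understates the change of low genes. KLF2 met the thresholds too, but it entered the test only because the knock-in libraries passed the filter on low values, so it is described apart from these counts. All knock-in libraries lay above all WT libraries for 5 of the 9 (KLF3, KLF6, KLF10, KLF11 and KLF13), against 19% of all genes. The median difference of the 9 members was 0.58, and that of all genes tested was -0.0014.

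Of the naive-state genes, KLF2 was listed at 0 in WT PC-iPS 1 and at 0.054 and 0.046 FPKM in WT PC-iPS 2 and 3. In knock-in lines 1, 2 and 3 it reached 0.807, 2.23 and 1.94 FPKM. KLF2 was therefore near 0 in every parental library and low but present in every knock-in library. Its difference was 1.32 (SE 0.21, 95% confidence interval 0.83 to 1.81, limma adjusted p = 0.019). This p supports nothing beyond the values, because the filter let KLF2 in through the knock-in group alone. The adjusted p rose above 0.05 when WT PC-iPS 1 or WT PC-iPS 2 was left out (0.063 and 0.052) and was 0.033 without WT PC-iPS 3. When a knock-in library was left out, KLF2 fell under the filter and could not be fitted.

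KLF4, which promotes the naive state and reprogramming, had 83.7, 53.7 and 84.8 FPKM in WT PC-iPS 1, 2 and 3 and 68.9, 77.6 and 91.4 FPKM in knock-in lines 1, 2 and 3. The groups overlapped, and the highest values of both were close. The difference was 0.12 (95% confidence interval -0.34 to 0.57, limma adjusted p = 0.72), so the interval held no change of 1 log2 unit in either direction. It turned to -0.10 without WT PC-iPS 2 and to -0.011 under quantile normalization. PC-iPS cells were themselves made with the factors OCT4, SOX2, KLF4 and c-Myc, so a KLF4 transgene was introduced into them, and whether transgene reads were counted on the gene was not tested.

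KLF5, active in both the inner cell mass and the trophectoderm of the early mouse embryo, had 0.551, 1.49 and 2.97 FPKM in the WT libraries and 2.68, 9.46 and 5.39 FPKM in the knock-in lines. Knock-in line 1 fell below WT PC-iPS 3, and the spread within each group was wide. Its difference of 1.33 (SE 0.45, 95% confidence interval 0.30 to 2.37) was not called (limma adjusted p = 0.11, two-sided exact permutation p = 0.20). On this scale it was close to that of KLF2 (1.32), but with 0.1 in place of 1 added to the FPKM, KLF5 differed by 1.84 and KLF2 by 3.63. Of 6 trophectoderm markers tested, 2 were called higher in the knock-in lines, beside 1.61% of all genes tested. Those called were the keratin gene KRT8 at 4.13 (limma adjusted p = 0.025) and TFAP2A at 1.56 (0.019). KRT8 had 3.34 to 8.50 FPKM in WT PC-iPS and 44.3 to 428 in the knock-in lines, highest in line 2, and the other 9 markers of the list summed to 9.62 to 11.7 and 28.7 to 85.8 FPKM, with GATA3 overlapping between the groups and CDX2 at 0 in all 12 libraries. The part of such cells in the KLF5 values was not tested.

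The TGF-beta-inducible pair split. KLF10 had 10.9, 10.6 and 5.08 FPKM in WT PC-iPS 1, 2 and 3 and 43.1, 61.9 and 62.9 FPKM in the knock-in lines. The lowest knock-in library was well above the highest WT library. On the log2(FPKM + 1) scale this was the largest difference among the 10 members, 2.57 (SE 0.28, 95% confidence interval 1.92 to 3.23, limma adjusted p = 0.0063). It was called in all 6 fits that left out a library (2.25 to 2.75). The ranking depends on the scale: with 0.1 in place of 1 added to the FPKM, KLF2 differed by 3.63 and KLF10 by 2.70. KLF11 had 1.1047, 0.808 and 0.633 FPKM in WT PC-iPS and 1.25, 1.24 and 1.1052 in the knock-in lines. The highest WT and the lowest knock-in library were all but equal, and the difference was 0.26 (95% confidence interval -0.04 to 0.56, limma adjusted p = 0.23).

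Among the other 5 members, KLF6 changed. KLF6 is a widely expressed activator first known from injured liver and placenta. It had 2.91, 3.77 and 4.98 FPKM in WT PC-iPS and 22.3, 22.6 and 19.5 FPKM in the knock-in lines. Both groups were tight and far apart, with a difference of 2.22 (SE 0.18, 95% confidence interval 1.81 to 2.63, limma adjusted p = 0.0020), and leaving out any library kept the call (2.07 to 2.38). Beside 1.61% of all genes tested, 4 of the 11 pericyte and fibroblast markers tested were called higher, and none lower. These were TAGLN, an actin-binding protein of smooth muscle, at 4.21 (limma adjusted p = 0.00066), ACTA2, smooth muscle actin, at 2.61, the receptor gene PDGFRB at 1.64 and the proteoglycan gene DCN at 1.49. The other 7 were not called, and the collagen gene COL1A1 lay lower in all knock-in libraries (-0.39, adjusted p = 0.16). The part of these genes in the KLF6 difference was not tested.

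KLF3, a repressor that recruits CtBP, had 20.6, 25.3 and 26.5 FPKM in WT PC-iPS and 34.3, 33.7 and 42.0 FPKM in the knock-in lines. The groups did not overlap and its adjusted p by limma was 0.047, but its difference of 0.58 (SE 0.14) was below the size required for a call, and over the alternative settings that p ranged from 0.042 to 0.13. KLF13, a regulator of lymphocyte and heart genes, had 10.1, 9.86 and 7.87 FPKM in WT PC-iPS and 15.0, 12.2 and 24.6 in the knock-in lines. All knock-in values were higher, line 3 most of all, and the difference of 0.78 (95% confidence interval 0.20 to 1.35) was not called (limma adjusted p = 0.094). KLF7, which acts in neurons and fat tissue, and KLF9, a hormone-responsive gene, overlapped between the groups. KLF7 differed by 0.24 (95% confidence interval -0.29 to 0.77) and KLF9 by 0.35 (95% confidence interval -0.36 to 1.06). With a library left out, KLF7 ranged from 0.02 to 0.42 and KLF9 from 0.11 to 0.72, and neither was called. For KLF9 the widest spread was in the parents, where WT PC-iPS 1 had 4.55 FPKM and the other two 1.41 and 1.79.

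**Figure D2:**
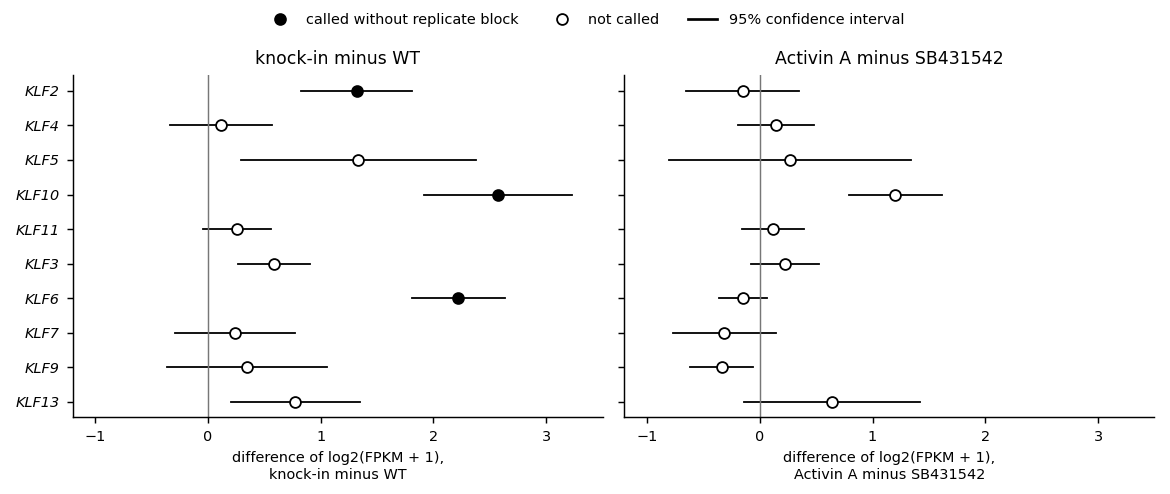
Difference of log2(FPKM + 1) between groups for each KLF gene, with 95% confidence intervals from limma; filled points were called without a replicate block and open points were not. KLF10 and KLF6 were called between knock-in and WT PC-iPS, as was KLF2, which passed the filter through the knock-in group alone, and KLF10 at 1.20 was the farthest from 0 between Activin A and SB431542.

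The second comparison set Activin A against SB431542 in knock-in cells and asked which genes follow the Activin and SMAD pathway. KLF10 was the member with the largest difference, and none of the naive-state genes was called. Without a replicate block, 0 of the 10 members were called by limma, beside 0.0929% of the 13999 genes tested, and 2 members had an unadjusted p of at most 0.05 (KLF10 higher and KLF9 lower), against 12.8% of all genes. Libraries with the same number deviated together in this table, and with the number as a block 1 member, KLF10, was called, beside 0.707% of all genes (99 genes against 13 without the block). The groups did not overlap for 2 members, against 20% of all genes, which is the same share. The median difference of the members was 0.13, and that of all genes was -0.0040. Of 11 pericyte and fibroblast markers tested, 1 was called, the smooth muscle actin gene ACTA2, which was lower with Activin A (-1.13, limma adjusted p = 0.035). Of 6 trophectoderm markers none was called by limma, and 2 were higher with Activin A at an unadjusted p of at most 0.05. With the replicate block the trophectoderm factor genes GATA2 (2.28) and TFAP2C (1.51) and the collagen gene COL1A2 (1.59) were called higher, and the keratin gene KRT8 (-1.21) and the pluripotency-associated gene LIN28A (-1.55) lower. The collagen gene COL3A1 is left out of these calls, since it was under 0.1 FPKM in 1 SB431542 library. It had 6.57, 7.47 and 42.9 FPKM with Activin A and 0.016, 0.215 and 2.73 with SB431542. The part of all these genes in the KLF differences was not tested.

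KLF10 had 89.0, 102 and 76.9 FPKM in Activin A libraries 1, 2 and 3, and 31.1, 36.9 and 47.9 FPKM in SB431542 libraries 1, 2 and 3. Every Activin A library was above every SB431542 library. The difference was 1.20 (SE 0.17, 95% confidence interval 0.79 to 1.61), with a limma adjusted p of 0.075 without the block and 0.045 with it. Within numbers 1, 2 and 3 it was 1.49, 1.45 and 0.67. Leaving out a library gave 1.06 to 1.36 with adjusted p from 0.097 to 0.26. The untreated knock-in lines, at 43.1 to 62.9 FPKM, lay below all Activin A libraries and overlapped those with SB431542, and even with the inhibitor KLF10 was above every WT library, a set of levels from separate tables that was not tested. NANOG was ordered otherwise, since its SB431542 values overlapped those of WT PC-iPS.

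KLF11, the other TGF-beta-inducible gene, had 1.55, 1.51 and 1.43 FPKM with Activin A and 1.63, 1.06 and 1.25 with SB431542. The highest value of the 6 was an SB431542 library. The difference was 0.12 (95% confidence interval -0.16 to 0.39, limma adjusted p = 0.70), an interval that lies below that of KLF10. A low level limits what this scale can show for KLF11.

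The naive-state genes overlapped between the treatments in all 3 cases. KLF2 had 1.06, 1.52 and 2.39 FPKM with Activin A and 1.41, 2.26 and 2.06 with SB431542, a difference of -0.15 (95% confidence interval -0.65 to 0.35). KLF4 had 71.9, 72.7 and 96.9 FPKM with Activin A and 70.2, 65.4 and 82.0 with SB431542, a difference of 0.14 (95% confidence interval -0.20 to 0.48). KLF4 was higher with Activin A within each number, by 0.04 to 0.24. KLF5 had 3.77, 8.87 and 5.10 FPKM with Activin A and 2.13, 8.92 and 4.30 with SB431542, a difference of 0.27 whose interval was the widest of the members (-0.81 to 1.34). The intervals of KLF2 and KLF4 held no change of 1 unit of log2(FPKM + 1) in either direction, whereas that of KLF5 did. KLF2 was low, and this scale understates the change of low genes, so its interval sets no such limit on its FPKM. The signs for KLF2 and KLF5 were not stable: KLF2 turned to 0.016 without Activin A 1, and KLF5 to -0.024 without Activin A 2 and to -0.14 without SB431542 1.

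KLF9 was the member lying lower with Activin A in all libraries, at 2.50, 2.68 and 2.67 FPKM against 3.28, 4.17 and 3.31 with SB431542. The difference was -0.34 (SE 0.12, 95% confidence interval -0.62 to -0.06) and was not called (limma adjusted p = 0.32, and 0.13 with the replicate block). KLF13 had 16.5, 14.2 and 32.7 FPKM with Activin A and 13.5, 8.95 and 15.3 with SB431542. It was higher with Activin A within each number, by 0.27, 0.61 and 1.04, but the treatments overlapped across numbers. Its difference was 0.64, and the number block lowered the SE from 0.33 to 0.15 without a call (limma adjusted p = 0.46 and 0.10). Leaving out a library gave 0.29 to 0.87.

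KLF6, which was so different between knock-in and WT PC-iPS, had 22.5, 18.9 and 20.2 FPKM with Activin A and 22.2, 24.3 and 22.2 with SB431542. These values were close to those of the untreated lines, and the difference was -0.15 (95% confidence interval -0.37 to 0.06). KLF3 differed by 0.22 (95% confidence interval -0.08 to 0.52) and KLF7 by -0.31 (95% confidence interval -0.77 to 0.14). KLF7 was lower with Activin A within each number, and KLF3 was higher within each.

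**Figure D3:**
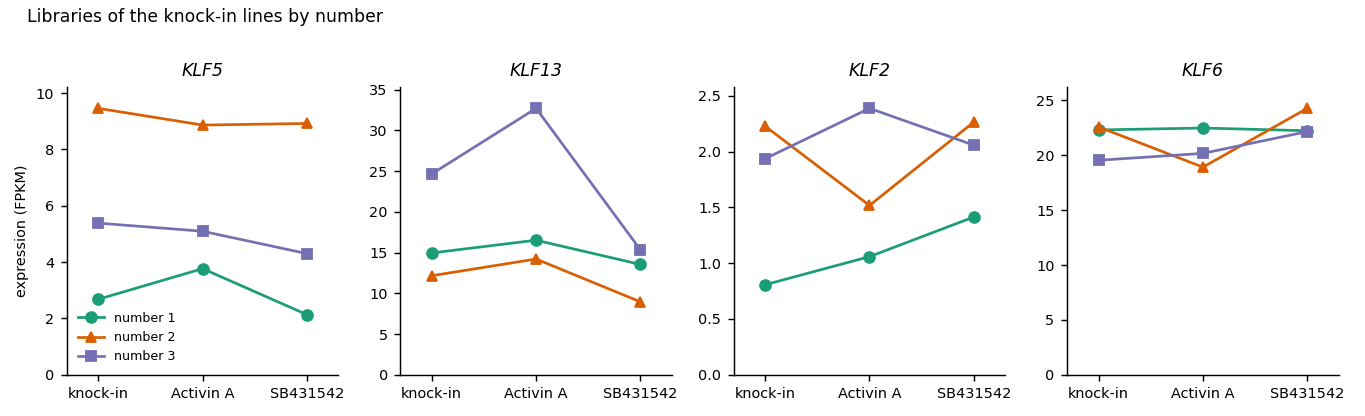
FPKM (linear axes from 0) of KLF5, KLF13, KLF2 and KLF6 in untreated, Activin A and SB431542 libraries of knock-in cells; lines join libraries with the same number. KLF5 ran 2, 3, 1 from high to low in all 3 groups, with number 2 between 8.87 and 9.46 FPKM, and KLF13 ran 3, 1, 2, while the KLF6 lines cross.

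Differences between the numbered libraries were as plain for some members as those between treatments. The untreated knock-in libraries are named for lines 1, 2 and 3. That a number in the treated libraries marks the same line is not stated by the labels, but deviations of same-numbered libraries correlated at 0.506 to 0.664 between untreated and Activin A groups and at 0.516 to 0.631 between untreated and SB431542 groups (Pearson, across 13891 genes, which are not independent replicates), against -0.498 to -0.064 and -0.475 to -0.177 for different numbers. KLF5 was highest in number 2 and lowest in number 1 in all 3 groups: number 2 had 9.46, 8.87 and 8.92 FPKM in the untreated, Activin A and SB431542 libraries, number 3 had 5.39, 5.10 and 4.30, and number 1 had 2.68, 3.77 and 2.13. The 3 numbers of KLF5 did not overlap. The trophectoderm markers KRT8, KRT18, TFAP2A, TFAP2C and GATA2 were also highest in number 2 in all 3 groups, with KRT8 at 428, 334 and 835 FPKM and TFAP2C at 9.41, 17.8 and 6.36 in the untreated, Activin A and SB431542 libraries, and their part in the KLF5 values was not tested. KLF13 was highest in number 3 in each group (24.6, 32.7 and 15.3 FPKM) and lowest in number 2 (12.2, 14.2 and 8.95). KLF3 kept the order 3, 1, 2 and KLF9 the order 2, 3, 1 (by 2.68 against 2.67 FPKM for the first 2 numbers with Activin A), so that 4 of the 10 members had a single order through the 3 groups, as did 18.6% of all genes, and 6 had the same highest number, as did 37.7%.

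Tested within the Activin A and SB431542 libraries, with treatment as a covariate, library number gave an adjusted p of at most 0.05 for 0 of the 10 members by limma's F test, beside 1.54% of all genes. An unadjusted p of at most 0.05 was reached by 6 members (KLF2, KLF3, KLF4, KLF5, KLF7 and KLF13), against 24.6% of all genes. KLF5 had the smallest p, 0.0015 (adjusted p = 0.062), with number 2 above number 1 by 1.36 and number 3 above number 1 by 0.56. Both libraries numbered 2 were above the other 4, as in 8.08% of all genes. KLF4 (adjusted p = 0.098) was highest in number 3, as it was in the untreated lines, and both libraries numbered 3 were above the other 4, as in 13.2% of all genes. For KLF10 and KLF6, which were called between knock-in and WT PC-iPS, the adjusted p of library number was 0.71 and 0.84.

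The rest of the KLF and SP family was taken as a list. SP proteins are the closest relatives of the KLFs and share their zinc fingers. Of the 17 other family genes listed, 15 were matched, KLF17 was at 0 in all 12 libraries, and 10 could be tested between knock-in and WT PC-iPS and 11 between the treatments. None of the 10 or the 11 was called by limma without the block, where 2.31% and 0.0929% of all genes were, so these counts say nothing particular of the family. At an unadjusted p of at most 0.05, 2 of the 10 were higher in the knock-in lines, against 28.6% of all genes in either direction, and 2 of the 11 were lower with Activin A, against 12.8%. For 3 of the 10, all knock-in libraries were above all WT libraries, against 19% of all genes. SP5, a target of WNT and beta-catenin, had the largest difference, 1.55 in the knock-in lines (limma adjusted p = 0.11), and KLF16 differed by -0.53 between Activin A and SB431542 (adjusted p = 0.16).

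KLF10 is known as a target of TGF-beta signalling, and other targets were set beside it. Of 14 TGF-beta and Activin target genes tested, 2 were called higher in the knock-in lines, beside 1.61% of all genes tested, and none lower. Those called were the matricellular protein gene CCN2 at 1.96 (limma adjusted p = 0.025) and the SMAD co-repressor gene TGIF1 at 1.33 (0.0093). The median difference of the 14 was 0.59. Between Activin A and SB431542, 1 of the 12 that reached 0.1 FPKM in every library was called higher, the inhibitory SMAD gene SMAD7 at 1.80 (limma adjusted p = 0.024). With the replicate block 4 were called, and the median of the 12 was 0.46. Of all genes, 0.0929% were called without the block and 0.707% with it. The NODAL antagonist gene LEFTY2 is left out of this count, since it passed the filter on low values only through the Activin A group (1.37, 0.783 and 1.20 FPKM) and was listed at 0 in all SB431542 libraries. SMAD7 differed by 0.36 between knock-in and WT PC-iPS and was not called there (limma adjusted p = 0.17). The part of this pathway in the KLF10 values was not tested.

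Immediate-early genes, the first to answer growth factors and cell handling, include KLF10 and KLF6 in some tissues. Of 14 that reached 0.1 FPKM in every WT and knock-in library, 6 were called higher in the knock-in lines, beside 1.61% of all genes tested, and none lower. The median of the 14 was 1.53, and NR4A1 at 3.42 (limma adjusted p = 0.0020) and CCN1 at 3.06 (0.022) were among those called. FOSB and EGR3 were under 0.1 FPKM in at least 1 WT library, passed the filter only with the knock-in libraries and are left out of these counts. FOSB had 1.79, 0.086 and 0 FPKM and EGR3 had 1.16, 0.163 and 0.097 FPKM in WT PC-iPS, against 13.6 to 20.3 and 10.1 to 23.9 FPKM in the knock-in lines. With Activin A against SB431542, 0 of 16 were called by limma without the block, beside 0.0929% of all genes. At an unadjusted p of at most 0.05, 11 were higher, beside 12.8% of all genes in either direction. With the block 4 were called, FOS, FOSB, EGR1 and EGR2, beside 0.707% of all genes. The median of the 16 was 0.68. Summed over 17 genes, their level was 367 to 730 FPKM in WT PC-iPS, 747 to 1005 in the knock-in lines, 1150 to 1602 with Activin A and 707 to 844 with SB431542. Of the 17 genes, 12 had their highest mean with Activin A, 2 in the knock-in lines, 2 with SB431542 and 1, MYC, in WT PC-iPS. JUNB, counted under the knock-in lines, was at most 0.056 FPKM in any library. The share over all genes was not computed, so these counts cannot be read as particular to the list. KLF10 also had its highest mean with Activin A, and the part of the immediate-early response in its values was not tested.

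The naive pluripotency circuit is the set of factors and LIF pathway genes around the naive-state KLFs. In each comparison 9 of its genes reached 0.1 FPKM in every library, with medians of -0.14 in the knock-in lines and 0.18 with Activin A. Of these, NANOG alone was called, at 2.06 in the knock-in lines (limma adjusted p = 0.025) and at 3.18 with Activin A (0.042). The knock-in cells had been sorted for the reporter at NANOG, so a higher NANOG than in WT PC-iPS was selected for. The p of that comparison supports nothing beyond the values. NR0B1 (0, 0 and 0.095 FPKM in WT PC-iPS) is left out of the first comparison and DPPA5 of the second, since they did not reach that level. STAT3, which carries the LIF signal to KLF4, differed by -0.62 in the knock-in lines (adjusted p = 0.080). ZFP42 was at 0 in all 12 libraries. Of 6 pluripotent cell markers tested, 2 were called higher in the knock-in lines and none lower, beside 1.61% of all genes tested. Those called were NANOG and LIN28A, the latter at 2.08 (limma adjusted p = 0.018).

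**Figure D4:**
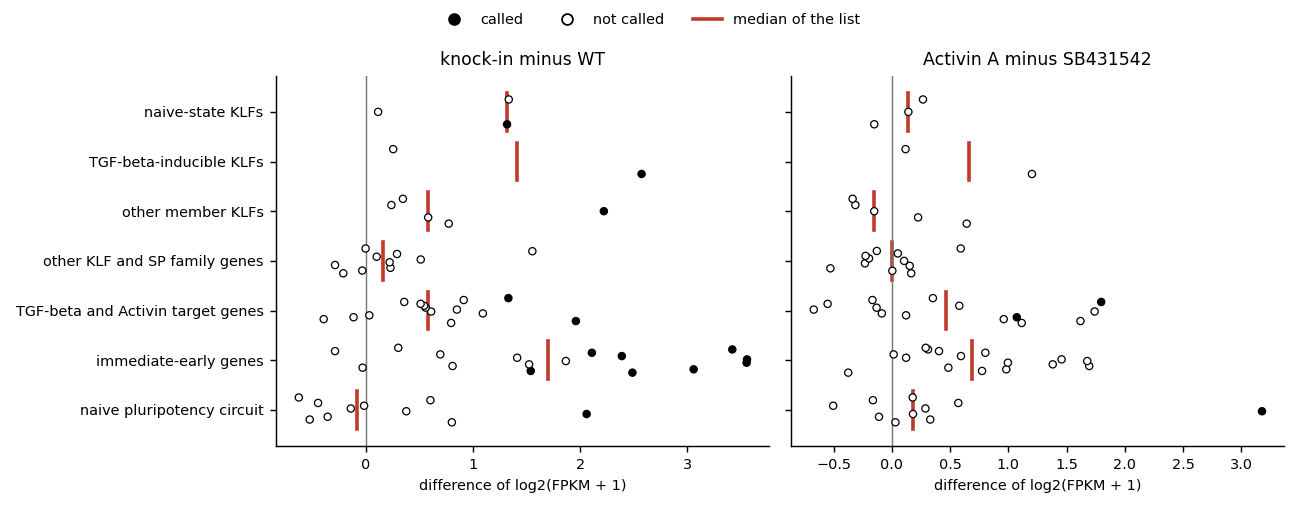
Difference of log2(FPKM + 1) for each tested gene (points, filled where called without a replicate block) of the KLF groups and of 4 other gene lists, with list medians as red bars; each panel has its own axis range. In the knock-in lines 6 of the 14 immediate-early genes that reached 0.1 FPKM in every library of both groups were called. FOSB, EGR3 and KLF2, also filled there, did not reach it, nor did LEFTY2, filled in the other panel. Red bars take every tested gene, so the immediate-early bar in the knock-in panel is at 1.70, with FOSB and EGR3 counted. Between Activin A and SB431542 the medians were 0.68 for the 16 immediate-early genes tested, 0.46 for TGF-beta and Activin targets and 0.14 for naive-state KLFs.

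Likeness across the 12 libraries was described by Pearson's r of log2(FPKM + 1) against 10489 genes with a mean of at least 1 FPKM. The libraries fall into 4 groups with WT PC-iPS apart from the rest for many genes, so r mostly reflects that split. KLF10 was most like FOSB (r = 0.979), EGR3 (0.965) and TBCB (0.960). KLF6 was most like MYL9 (0.989), KLHL21 (0.988) and TAGLN (0.988), of which MYL9 and TAGLN encode smooth muscle contractile proteins. KLF5 was most like AXIN2 (0.979), a feedback inhibitor and target of WNT signalling, then NADSYN1 (0.963) and AIPL1 (0.962), and KLF2 was most like COPZ1 (0.962). Among the members, KLF2 and KLF6 had the highest r (0.904), followed by KLF6 and KLF10 (0.855), while KLF4 reached at most 0.586, with KLF7.

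On the pig genome Sscrofa11.1, by RefSeq annotation, the genes lie on 8 chromosomes. The members that differed most were KLF10 at chr4:34430132-34435990, KLF6 at chr10:66488445-66497830, KLF2 at chr2:61270733-61273037 and KLF5 at chr11:45370009-45386673. KLF4 (chr1:248604817-248609574), KLF9 (chr1:223723613-223747661) and KLF13 (chr1:143499136-143540233) share chromosome 1, far from each other.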

How the data were processed

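The authors aligned reads to pig genome Ssc11.1 with HISAT2 (2.0.4) and deposited FPKM values computed with StringTie (1.3.3) on Ensembl genes, in 2 tables of 6 libraries each. Columns of the authors' own comparisons (fold changes and p-values) were not used. Genes with at least 0.1 FPKM in 3 libraries of a table were tested on log2(FPKM + 1) with limma 3.58.1 (variance trend, Benjamini-Hochberg adjustment over all genes tested). No test crossed the tables. Depth is unknown, and p-values measure only the spread between these libraries. Permutation tests of 3 against 3 are exact and two-sided, and cannot go below 0.1.

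In the Activin A and SB431542 table, deviations of same-numbered libraries correlated at 0.401, 0.588 and 0.536, and of others at -0.498 to -0.148, so the number was also used as a block; the pairing comes from these data, not from the labels. Pseudocount, filter, scaling, variance trend and left-out libraries were varied. The fits were tested on simulated data. The named genes are the 10 members, genes of lists chosen by role, and the 3 genes most like each member. Members and lists were chosen with earlier results of these data known. Of the 24358 genes, 17451 had a symbol in the tables and 939 from gene identifiers; 5968 had none. Protein sequences were not analysed here.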

Additional observations from a re-analysis of the deposited data

How the results depend on the processing

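KLF10 and KLF6 were called between knock-in and WT PC-iPS in all 15 alternatives run. KLF2 lost its call without WT PC-iPS 1 or 2 (limma adjusted p = 0.063 and 0.052). Its difference rose from 1.32 to 3.63 with pseudocount 0.1, to 5.53 with 0.01 and to 2.24 with TPM, and it fell under a filter of 1 FPKM. Counting KLF2, 2 to 3 members were called when a library was left out. Signs turned for KLF4 (-0.011 with quantile normalization, -0.10 to 0.23 with a library left out, lowest without WT PC-iPS 2), and between treatments for KLF2 (-0.34 to 0.016, highest without Activin A 1) and KLF5 (-0.14 to 0.69, with -0.14 without SB431542 1 and -0.024 without Activin A 2), none of them called; the cause was not tested. The order of the 4 group means held for 9 members with TPM and for 9 with median-ratio scaling.

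Numbers did not pair knock-in with WT libraries (r of deviations -0.018, 0.010 and 0.095). A replicate block there gave 172 genes higher and 60 lower in place of 225 and 99. It called KLF10 (limma adjusted p = 0.031) and KLF6 (0.018), as the fit without it did. KLF2 also met the thresholds (0.042), which supports nothing beyond its values, since it passed the filter through the knock-in group alone. The block also called SP5 (0.035) and lost CCN2 (0.059), KRT8 (0.059), ATF3 (0.050) and BTG2 (0.055). That left 4 of 14 immediate-early and 1 trophectoderm call in place of 6 and 2. Between Activin A and SB431542 the block called KLF10 (adjusted p = 0.045, 1 member) and 73 genes higher and 26 lower in place of 8 and 5; it changed no other member's call.

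Counts over all genes moved more, with causes not tested. Higher in the knock-in lines were 346 genes with pseudocount 0.1, 684 by adjusted p alone and 117 to 303 with a library left out. Lower were 192 with pseudocount 0.1, 181 with 0.01, 42 with no filter, 156 with TPM, 328 by adjusted p alone and 28 to 143 with a library left out. With Activin A, 5 were higher and 3 lower with pseudocount 0.01, 3 and 2 with no filter, 2 and 3 with a filter of 1 FPKM, 3 higher with no variance trend, 13 higher by adjusted p alone, and 0 to 4 higher and 0 to 1 lower with a library left out. Library number gave 215 genes, 0 with no filter and, in an alternative chosen after seeing the data, 2 to 33 with a library left out.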
